A study of Homo sapiens with 10 samples.

Results

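Isolated intergenic H3K9me3 peaks were the H3K9me3 peaks that stood alone and far from genes in HCT116 cells. They were chosen from the authors' H3K9me3 peak list by position. A member lay on chromosomes 1 to 22 or X, had no other peak of the list within 50 kb on either side, and had its summit more than 10 kb outside every gene of the RefSeq annotation of GRCh38. The list held 17209 peaks, of which 16414 lay on these chromosomes. Of those, 6487 were isolated (39.5%), 6184 were intergenic (37.7%), and 2233 were both (13.6%). These 2233 members covered 1257779 bases, or 13.2% of the bases in H3K9me3 peaks on these chromosomes. Isolation was no more frequent outside genes: 36.1% of the intergenic peaks and 41.6% of the peaks in or near a gene were isolated. Position in the H3K9me3 list and distance to genes chose the members, so both are given below as description only.

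CUT&Tag, in which an antibody tethers a transposase to chromatin so that DNA beside the bound protein is cut and tagged, was done on HCT116, an established human colorectal carcinoma line. All 10 samples were labelled wild type, with no treatment in the labels: 3 for H3K9me3, 3 for POLR1A (the catalytic RNA polymerase I subunit), 3 for POLR2A (its RNA polymerase II counterpart) and 1 for H3K4me3. Per the labels, each used 100000 to 200000 cells, and repeats were made on different days from newly thawed aliquots of the line. The purpose stated with the series was to place both polymerases in relation to each other and to the surrounding chromatin. The 4 peak lists were 1 per target and carried no values per replicate, so no spread between replicates could be given and no test was made. Intervals are exact (Clopper-Pearson) 95% intervals of a share and cover counting error only.

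H3K9me3, trimethylation of lysine 9 of histone H3, marks constitutive heterochromatin. It is laid down over satellite and centromeric repeats by the SUV39H enzymes, and over many transposable elements by SETDB1, which is brought to them by KRAB zinc finger proteins through TRIM28, and it is read by HP1 proteins. H3K4me3 marks active promoters, and RNA polymerase I is known for transcribing the ribosomal RNA genes in the nucleolus.

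The labelled cell line was checked by H3K4me3 at the ends of marker genes, within 1 kb. Of 13 colon epithelial markers 9 had such a peak (EPCAM, KRT8, KRT18, KRT19, CDH1, CDX2, SOX9, ELF3 and HNF4A). CDX1, VIL1, LGR5 and TFF3 had none. Of all protein-coding genes 54.6% had such a peak, so the colon count alone says little about the cell line. None of 5 leukocyte markers had one, and 1 of 5 fibroblast markers (COL1A1), 1 of 4 neuronal markers (MAP2) and 1 of 3 liver markers (APOA1) did.

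As a group the members were ordinary in height. The authors' fold enrichment, a linear ratio of signal over the caller's background, ran from 3.07 to 23.96 across members, with a median of 4.64 and a middle range of 4.06 to 5.47. The median was 4.61 over all H3K9me3 peaks and 4.62 over clustered intergenic peaks, the 3951 peaks that were also more than 10 kb outside genes but had another peak within 50 kb. Members were 303 to 4144 bp wide, with a median of 485 bp against 496 bp for all peaks and 506 bp for clustered intergenic peaks. A width of 1 kb or more was reached by 157 members (7.03%), beside 8.08% of all peaks. A fold of 10 or more was reached by 24 members (1.08%), beside 1.35% of all peaks. The curves of height and width for the 6 position classes lay almost on top of each other.

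**Figure D1:**
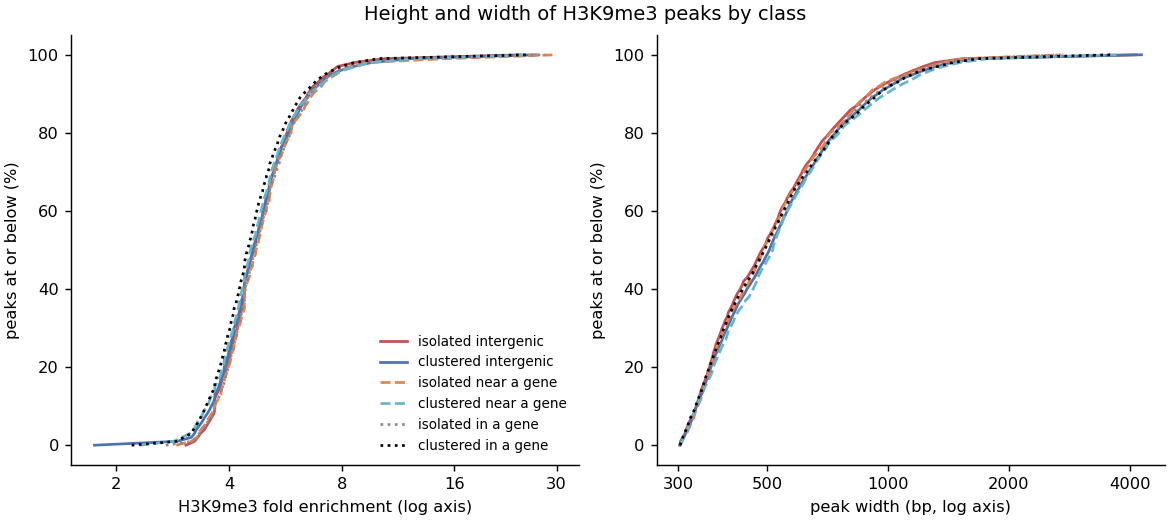
Cumulative share of H3K9me3 peaks (%) at or below each fold enrichment (left, log axis) and each width in bp (right, log axis), 1 line per position class. The line of the isolated intergenic peaks, with medians of 4.64 fold and 485 bp, runs among the other 5.

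A smaller share of members than of the whole list had a high −log10 q. A −log10 q of 5 or more was found at 453 members (20.3%, 18.6 to 22.02), beside 24.2% of all peaks and 26.3% of clustered intergenic peaks. At 10 or more the members were 95 (4.25%), beside 6.77% of all peaks and 8.83% of clustered intergenic peaks. At the low end, 437 members (19.6%) had a −log10 q under 2, beside 17.6% of all peaks. The values repeated often: 1842 members (82.5%) shared their exact fold and q with another member, and 99 members had the same fold of 4.396 with a −log10 q of 2.63. This was not particular to members. Over all H3K9me3 peaks 88.8% shared both values with another peak, and 417 had that same pair.

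Values on either side of the thresholds overlapped. The 5 members closest to the 50 kb limit had gaps of 50.05 to 50.14 kb and folds of 3.63 to 8.39, and the 5 intergenic peaks just inside it had gaps of 49.84 to 49.97 kb and folds of 3.44 to 6.04. The 5 members closest to the 10 kb limit lay 10.05 to 10.1 kb from a gene with folds of 4.20 to 6.80. The 5 isolated peaks just short of it lay 9.97 to 9.999 kb away with folds of 3.44 to 5.64.

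Most members had other H3K9me3 peaks in the wider region. The nearest other H3K9me3 peak lay at a median of 104.5 kb from a member, with a middle range of 70.5 to 183 kb and a largest value of 3172 kb. Within 1 Mb on either side a member had a median of 11 other H3K9me3 summits, beside 13 for all peaks and 18 for clustered intergenic peaks. No other summit lay within 1 Mb for 11 members (0.493%), beside 0.219% of all peaks. The member farthest from any other was chr15:17080539-17083532, 3172 kb from the next peak and 2801 kb short of the first annotated gene of its chromosome, the pseudogene RNU6-978P. It was also the second widest member at 2994 bp, with a fold of 7.71. Next came chr18:18668390-18668723, 1893 kb from another peak. Then came a pair on the X chromosome, chrX:108929965-108930502 and chrX:110557761-110558123, which were each other's nearest peak at 1627 kb. The fifth was chrX:53725234-53725602, 1436 kb from another peak and 38.7 kb from HUWE1, a ubiquitin ligase gene. The chromosome 18 peak and the 3 X peaks had folds between 3.66 and 4.12 and overlapped no peak of another target.

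Chromosome X stood highest in the share of its H3K9me3 peaks that were isolated and intergenic. There, 129 of 370 peaks were members (34.9%, 30.01 to 39.96). The next were chromosome 13 with 112 of 614 (18.2%, 15.3 to 21.5) and chromosome 18 with 75 of 424 (17.7%, 14.2 to 21.7), whose intervals overlapped each other but not that of X. Chromosome 19, known for its dense genes and its clusters of KRAB zinc finger genes, stood lowest with 11 of 497 (2.21%, 1.11 to 3.93). Chromosomes 17 (7.41%) and 22 (7.78%) came next. At these 2 ends the density of peaks ran the opposite way: X had the fewest H3K9me3 peaks per Mb of annotated span (2.38) and chromosome 19 the most (8.49). Between them it did not follow the share, with 6.27 peaks per Mb on chromosome 13 and 8.44 on chromosome 21, where 12.2% of peaks were members. Members per Mb came to 0.828 on X, near the median of 0.766, and ranged from 0.188 on chromosome 19 to 1.14 on chromosome 13. The largest counts were on chromosomes 4 (189), 5 (170) and 2 (166).

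Members on X were also among the weakest. Their median fold was 4.396, and only 3.88% of them reached a −log10 q of 5, the lowest share of any chromosome, beside 29.0% on chromosome 7, the highest.

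**Figure D2:**
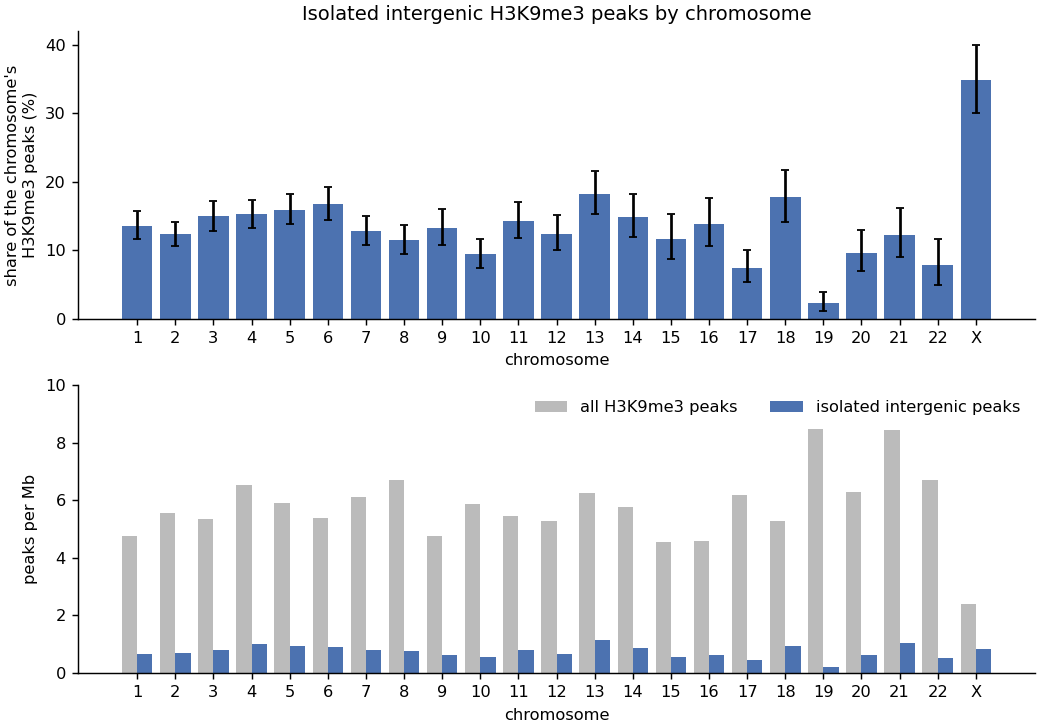
Top, isolated intergenic peaks as a share (%) of each chromosome's H3K9me3 peaks, with exact 95% intervals as bars; bottom, all H3K9me3 peaks (grey) and isolated intergenic peaks (blue) per Mb of annotated span. X stands highest in the top panel at 34.9% and lowest in grey at 2.38 peaks per Mb, and chromosome 19 shows the opposite, at 2.21% and 8.49.

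The genes around members were mostly non-coding. The nearest gene lay at a median of 37.7 kb from the summit, with a middle range of 19.4 to 79.5 kb, and the gene-free interval holding a member had a median length of 155 kb. The nearest gene was a lncRNA gene for 951 members (42.6%), a pseudogene for 772 (34.6%), a protein-coding gene for 452 (20.2%) and of another type for 58 (2.60%). Of all annotated genes, 30.7% were lncRNA genes, 27.9% pseudogenes and 33.9% protein-coding. Clustered intergenic peaks were closest to a protein-coding gene in 16.4% of cases (15.2 to 17.5), against 18.6 to 21.97 for members.

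Apart from genes with LINC symbols and uncharacterised loci (LOC symbols), families of genes directly beside members were few. Zinc finger genes flanked 16 members (0.717%) and 1.19% of clustered intergenic peaks. Zinc finger clusters are among the best known H3K9me3 domains. Both classes leave out peaks within 10 kb of a gene, and members also those within 50 kb of another peak. The low shares are therefore partly set by the rule. Olfactory receptor genes flanked 14 members (0.627%), beside 0.911% of clustered intergenic peaks. Cadherin and protocadherin genes flanked 13 (0.582%), beside 0.810%, and genes of neuronal adhesion and synapses flanked 25 (1.12%), beside 1.47%. Genes with LINC symbols flanked 397 members (17.8%), beside 17.995% of clustered intergenic peaks, and microRNA genes flanked 52 (2.33%), beside 2.28%. None of the 2233 members and none of the 3951 clustered intergenic peaks lay beside an immunoglobulin or T cell receptor segment. For the members this allows a share of up to 0.134%, taken as 3 counts of the total. The intervals of members and clustered peaks overlapped for each of the first 4 families and for the LINC and microRNA genes. They did not for uncharacterised loci, which flanked 1329 members (59.5%, 57.4 to 61.6) and 63.7% of clustered intergenic peaks (62.2 to 65.2). Nearby clustered peaks can share a gene, so the interval of that class may be too narrow.

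Ignoring non-coding genes, the nearest protein-coding gene body lay at a median of 186 kb from a member, beside 239 kb for clustered intergenic peaks. The 2233 members pointed to 1369 such genes, which was 6.91% of the 19817 protein-coding genes, and 958 of these were nearest to a single member. For genes of neuronal adhesion and synapses it was 41 of the 73 in the list (56.2%, 44.1 to 67.8). Among clustered intergenic peaks 40 of the 73 were (54.8%), so the measure did not separate isolated from clustered peaks. Cadherins and protocadherins, the calcium-dependent adhesion proteins, came to 19 of 87 (21.8%, 13.7 to 32.0) for both classes. Zinc finger genes came to 23 of 559 (4.11%) and olfactory receptor genes to 8 of 389 (2.06%). The length of the gene-poor regions around these families was not adjusted for.

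Several members often shared 1 distant coding gene. The cadherin genes CDH8 and CDH11, both on chromosome 16, were nearest to 11 and 10 members, with folds of 3.85 to 5.42 for CDH8 and 3.23 to 6.64 for CDH11. The 11 members at CDH8 lay 91.5 to 1414 kb from the gene. ADGRL2, an adhesion receptor of the latrophilin family, had 10 members, and FLRT2 (a ligand of latrophilins) and PCDH9 had 9 each. TENM4, a teneurin, had 8, and CNTNAP5, LRRC4C and NCAM2, all of neuronal adhesion, had 7 each. The zinc finger gene ZNF716 had 9. Of the 22 coding genes nearest to 7 or more members, 2 had H3K4me3 and POLR2A within 1 kb of an end, namely WSB1 and SPRY2, and none had POLR1A. These 22 genes were picked by their member counts.

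The coding genes nearest to members carried the promoter mark at a lower share than coding genes at large, with no test of the difference. H3K4me3 lay within 1 kb of an end of the nearest coding gene for 859 members (38.5%, 36.4 to 40.5), beside 54.6% of all coding genes. By peak, clustered intergenic peaks had 32.1% (30.6 to 33.5), an interval that did not overlap that of members. These 3951 peaks pointed to 1208 genes, so their interval by peak may be too narrow. Counting each gene once gave 610 of 1369 for members (44.6%, 41.9 to 47.2). The same count for clustered intergenic peaks was 42.3% (39.5 to 45.1), so on that count the intervals of both intergenic classes overlapped. POLR2A was at an end of 447 of the 1369 genes (32.7%), beside 41.3% of all coding genes. POLR1A was at an end of 103 (7.52%), beside 11.2%. The share with H3K4me3 was lower at larger distances, from 48.5% for members whose nearest coding gene lay 10 to 50 kb away, through 36.4% at 100 to 250 kb, to 31.6% at 500 kb or more. By family, 16 of the 23 zinc finger genes nearest to members had H3K4me3, 4 of the 41 neuronal genes did, and none of the 19 cadherins or of the 8 olfactory receptors did. Over the whole lists it was found at 339 of 559 zinc finger genes, 8 of 73 neuronal genes and 6 of 87 cadherins. HCT116 expression was not measured in these files.

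Few members overlapped a peak of another target, where 1 shared base counted as overlap. Of the 2233 members, 53 overlapped any of the 3 other lists (2.37%, 1.78 to 3.09), beside 5.62% of all H3K9me3 peaks and 4.505% of clustered intergenic peaks. The rule left out peaks in or within 10 kb of a gene, whose classes overlapped any other list at 4.9% to 11.2%. A share below that of all peaks is therefore partly set by the rule. POLR1A peaks overlapped 28 members (1.25%, 0.835 to 1.81), beside 3.44% of all H3K9me3 peaks and 3.64% of clustered intergenic peaks. POLR2A peaks overlapped 39 (1.75%, 1.25 to 2.38), beside 4.21% of all and 2.05% of clustered intergenic peaks. H3K4me3 peaks overlapped 16 (0.717%, 0.410 to 1.16), beside 2.47% of all and 0.582% of clustered intergenic peaks. For POLR2A and H3K4me3 the intervals of the 2 intergenic classes overlapped. For POLR1A they did not, since that of the clustered peaks ran from 3.08 to 4.28. Clustered peaks lie near each other, so their interval may be too narrow. More of them also had a −log10 q of 10 or more (8.83%, beside 4.25% of members). More lay in the chromosome margins defined below (13.4%, beside 7.21%). The POLR1A shares were not adjusted for either. Isolated peaks with a summit outside every gene but within 10 kb of one overlapped most, with 7.18% for POLR1A, 10.2% for POLR2A and 7.74% for H3K4me3.

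**Figure D3:**
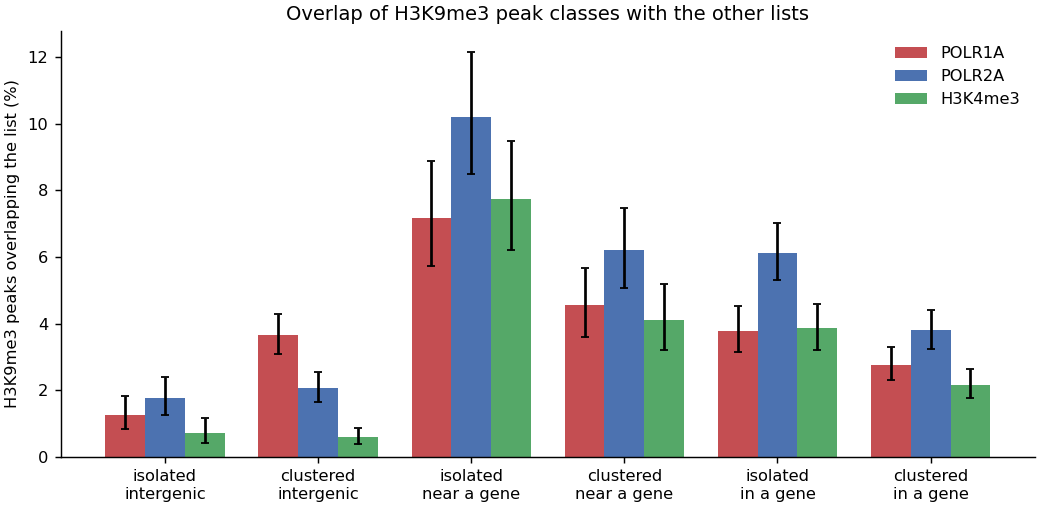
Share (%) of the H3K9me3 peaks of each position class that share at least 1 base with a POLR1A (red), POLR2A (blue) or H3K4me3 (green) peak, with exact 95% intervals as bars. The isolated intergenic class on the left has 1.25%, 1.75% and 0.717%, and among the 2 intergenic classes the red bar differs most.

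The summits of the other targets were also distant from members. Since peaks in or near genes were left out, longer distances than for all peaks are partly set by the rule. The nearest POLR1A summit lay at a median of 846 kb, beside 747 kb for clustered intergenic peaks and 498 kb for all H3K9me3 peaks. The nearest POLR2A summit lay at 300.2 kb, beside 372 kb and 134 kb, and the nearest H3K4me3 summit at 456 kb, beside 575 kb and 236 kb. A POLR1A summit lay within 10 kb of 33 members (1.48%, 1.02 to 2.07) but of 5.87% of clustered intergenic peaks (5.16 to 6.65). Within 100 kb the members reached 10.3% for POLR1A, 29.6% for POLR2A and 21.3% for H3K4me3, beside 20.6%, 45.2% and 36.6% of all peaks.

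**Figure D4:**
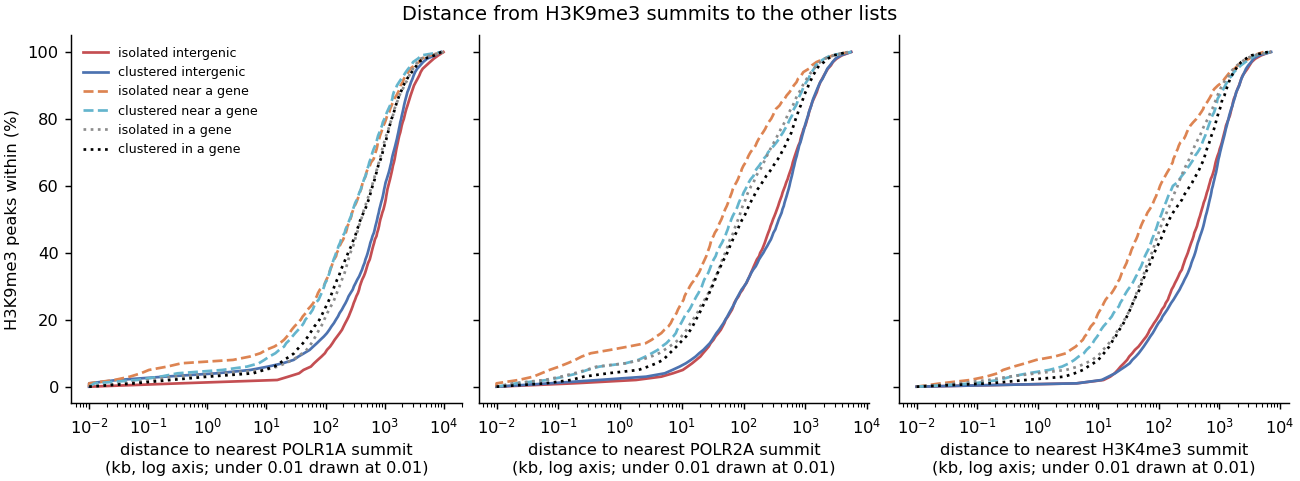
Cumulative share (%) of H3K9me3 peaks whose summit lies within a given distance (kb, log axis; values under 0.01 drawn at 0.01) of the nearest POLR1A, POLR2A or H3K4me3 summit, 1 line per position class. The 2 intergenic classes run together and to the right of the others for POLR2A and H3K4me3, and below 100 kb the isolated intergenic line lies under the clustered one for POLR1A.

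The 53 members with another target fell into 6 combinations. POLR2A alone was on 16, POLR1A alone on 12, POLR1A with POLR2A on 9, all 3 targets on 7 (0.313%, beside 1.52% of all peaks), POLR2A with H3K4me3 on 7, and H3K4me3 alone on 2. The height of H3K9me3 differed between these sets. The median H3K9me3 fold was 13.7 for the 9 members with both polymerases and no H3K4me3, 7.30 for the 12 with POLR1A alone, 6.08 for the 7 with all 3, 5.66 for the 16 with POLR2A alone and 5.29 for the 7 with POLR2A and H3K4me3. It was 4.62 for the 2180 members with no other target. The 9 with both polymerases ran from 5.85 to 23.96. Over all H3K9me3 peaks the medians of the same combinations, in the same order, were 7.68, 6.52, 5.18, 5.47 and 4.81. With no other target the median of all peaks was 4.57, so higher peaks with POLR1A were not particular to members.

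The share of members with POLR1A was highest among the strongest. With a −log10 q of 10 or more, 16 of 95 members overlapped a POLR1A peak (16.8%, 9.94 to 25.9), beside 25.7% of all 1111 H3K9me3 peaks that strong. Between 5 and 10 it was 7 of 358 members (1.96%), beside 2.76% of all peaks in that range. Between 3 and 5 it was 3 of 705 (0.426%), beside 1.96%, and between 2 and 3 it was 2 of 638 (0.313%), beside 1.62%. Under 2 it was none of 437, beside 0.969% of all peaks; a count of 0 allows a share of up to 0.686%, taken as 3 counts of the total. By height, 10 of the 24 members with a fold of 10 or more overlapped POLR1A (41.7%, 22.1 to 63.4), beside 51.4% of all 222 peaks that high. Below a fold of 10 it was 18 of 2209 (0.815%, 0.484 to 1.29). At any height 564 of all 16414 H3K9me3 peaks overlapped POLR1A (3.44%), and 114 of these had a fold of 10 or more.

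**Figure D5:**
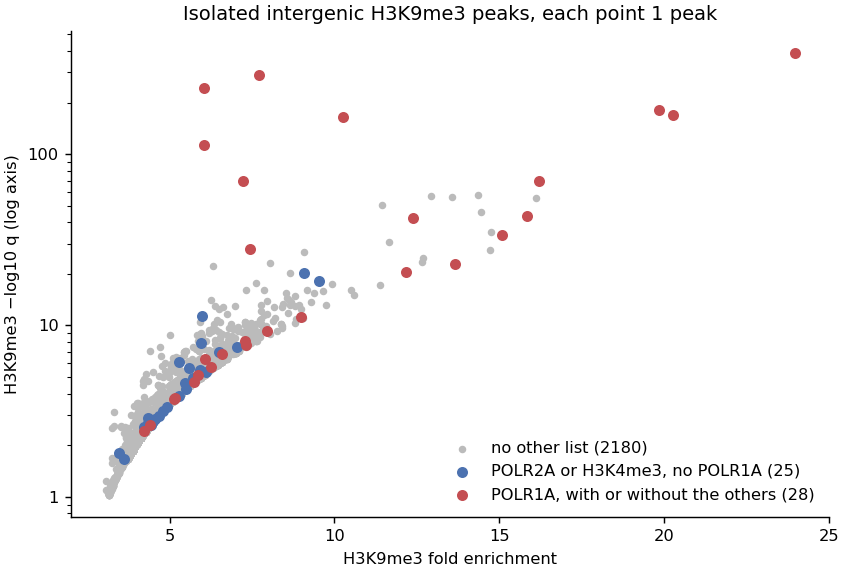
Fold enrichment (linear axis) against −log10 q (log axis) of every isolated intergenic H3K9me3 peak, 1 point per peak. Grey points overlap no other list (2180), blue points overlap POLR2A or H3K4me3 but not POLR1A (25), and red points overlap POLR1A (28). Red points make up 10 of the 24 at a fold of 10 or more.

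The tallest members were a mixed set. The highest fold, 23.96, was at chr18:4510685-4511074, a peak of 390 bp lying 14.5 kb from the lncRNA gene LOC105371968. It overlapped POLR1A at a fold of 9.71 and POLR2A at 3.73. The second, at 20.3, was chr21:43262464-43262835, between LOC124905025 and LOC124905026, with POLR1A at 7.06 and POLR2A at 4.53. The third, at 19.8, was chr1:236096973-236097440, between NID1, which encodes the basement membrane protein nidogen, 32.2 kb away, and the pseudogene ACO2P2. This peak had the highest POLR2A fold of any member, 36.1, with POLR1A at 21.5 and H3K4me3 at 9.99. The sixth, at 15.8, was chr16:1025259-1025675, between SOX8, a transcription factor gene 38.4 kb away, and SSTR5-AS1. It had the highest POLR1A fold of any member, 24.95, with POLR2A at 17.9 and H3K4me3 at 20.7. These last 2 were the members in which all 4 targets reached a fold above 9.

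Others of the 10 tallest lay in long gene-free intervals or carried H3K9me3 alone. The fourth, chr3:93470362-93470822, had a fold of 16.2 and lay 373 kb from the nearest gene, with POLR1A at 19.8 and POLR2A at 12.5. The seventh, chr4:51107233-51107571, had 15.1 and lay 726 kb from DCUN1D4, with POLR1A at 9.27 and POLR2A at 3.73. The fifth, chr4:153129413-153130030, had 16.1, overlapped no other target, and lay 22.6 kb from TRIM2, a ubiquitin ligase gene. The remaining 3 overlapped none either: chr10:38578908-38579631 and chr17:25788528-25788935, both with 14.7, and chr4:3814755-3815716, with 14.4 and the olfactory receptor pseudogene OR7E163P on 1 side. In all, 6 of the 10 overlapped POLR1A, 6 overlapped POLR2A and 2 overlapped H3K4me3.

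The 5 widest members all overlapped POLR1A. They were chr21:7257499-7261642 (4144 bp), chr15:17080539-17083532 (2994 bp), chr21:9246157-9249030 (2874 bp), chr4:49709305-49711862 (2558 bp) and chr21:5327448-5329899 (2452 bp). Their H3K9me3 folds were 6.05, 7.71, 6.04, 7.24 and 10.3, and their POLR1A folds 9.46, 9.19, 6.54, 9.80 and 6.89. The POLR2A fold was 3.27 at the first, 3.46 at the second and 6.04 at the fourth, which also had H3K4me3 at 4.28. Of all members at least 1 kb wide, 6 of 157 overlapped POLR1A (3.82%, 1.42 to 8.13), beside 8.67% of all H3K9me3 peaks that wide.

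Members in long gene-free intervals, which in this assembly include the repeat-rich centromeric regions, overlapped POLR1A at a higher share than members elsewhere. Intervals of at least 1 Mb held 113 members (5.06%), beside 2.6% of all peaks and 7.74% of clustered intergenic peaks. POLR1A overlapped 11 of these 113 (9.73%, 4.96 to 16.8) and 15 of the 2111 in shorter intervals (0.711%, 0.398 to 1.17). For all H3K9me3 peaks the corresponding shares were 18.5% of 427 and 2.91% of 15951. The 9 members beyond the first or last gene of a chromosome, 2 of them with POLR1A, were in neither set. In the long intervals POLR2A overlapped 4 of the 113 (3.54%) and H3K4me3 1 (0.885%), beside 6.09% and 1.87% of all H3K9me3 peaks there. Of the 12 members with POLR1A alone 7 lay in such intervals, beside 52 of all 190 H3K9me3 peaks with POLR1A alone.

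Of the 25 intervals of at least 1 Mb, 22 held a member. Among them, 11 of 58 H3K9me3 peaks were members at chr1:121571889-143299517, the longest interval at 21.7 Mb, and 9 of 56 at chr17:22705637-26981691. Of the 5 members farthest from a gene, 4 lay in the chromosome 1 interval, led by chr1:124454452-124454762 at 2883 kb, with folds of 4.21 to 5.86 and no other target. At chr20:26251589-28580632, 5 of the 7 peaks were members and 3 of these overlapped POLR1A, among them chr20:28308021-28308491 with an H3K9me3 fold of 13.7, POLR1A at 8.43 and POLR2A at 3.73. At chr10:38719383-42149318 none of 29 peaks was a member.

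Chromosome margins were treated as a wider set: within 1 Mb of the first or last gene of a chromosome or beyond it, or in or within 1 Mb of a gene-free interval of at least 2 Mb. They held 161 members (7.21%), beside 8.69% of all peaks. POLR1A overlapped 14 of these 161 (8.70%, 4.84 to 14.2) and 14 of the other 2072 (0.676%, 0.370 to 1.13). POLR2A overlapped 6 (3.73%) and 33 (1.59%), and H3K4me3 1 (0.621%) and 15 (0.724%). Of all H3K9me3 peaks in the margins, 13.6% overlapped POLR1A, 8.48% POLR2A and 3.64% H3K4me3, so a higher POLR1A share there was not particular to members. Outside the margins POLR1A was on 2.47% of all H3K9me3 peaks, so the members stayed below all peaks there. How reads from repeated sequence were handled is not given in the sources used here.

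Of the 16 members with H3K4me3, 15 lay outside the margins, as did 2072 of all 2233 members. The highest H3K4me3 fold was 21.7 at chr2:173532541-173533109, with POLR2A at 8.38, H3K9me3 at 5.94 and only pseudogenes on either side. At chr14:57112422-57112724 H3K4me3 was 20.2, POLR2A 11.0, POLR1A 5.28 and H3K9me3 5.16, and EXOC5, which encodes an exocyst subunit, lay 87.9 kb away. At chr6:100196623-100196966 H3K4me3 was 13.9, POLR2A 10.3 and H3K9me3 4.34, and the transcription factor gene SIM1 lay 188 kb away. At chr7:21971963-21972628, 26.1 kb from CDCA7L and 146 kb from RAPGEF5, H3K4me3 was 11.4, POLR2A 11.5, POLR1A 4.37 and H3K9me3 4.22. At chr2:32916278-32916592 H3K4me3 was 12.04, POLR2A 11.9, POLR1A 8.63 and H3K9me3 5.74. These 5 were taken from the 10 members with the highest H3K4me3 fold, so a value above that list's median of 9.03 follows from the choice. Their H3K9me3 fold lay between 4.22 and 5.94, beside a middle range of 4.06 to 5.47 for all members. Other members with H3K4me3 were higher, with H3K9me3 at 19.8 at chr1:236096973-236097440 and 15.8 at chr16:1025259-1025675. Over all 16 the median H3K9me3 fold was 5.37. Over the 16 members the H3K4me3 fold ran from 4.28 to 21.7 with a median of 11.7.

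Members with POLR2A and no H3K4me3 included several near named genes. At chr2:11508-11934, before the first annotated gene of the chromosome, FAM110C, POLR2A was 13.6, POLR1A 6.02 and H3K9me3 5.85. At chr13:62643070-62643461 POLR2A was 10.9 and H3K9me3 6.504, 29.1 kb from LINC00448. At chr13:73089930-73090476, 12.5 kb from KLF5, a Krüppel-like transcription factor of the intestinal epithelium, POLR2A was 9.26 and H3K9me3 5.597. Over the 39 members with POLR2A its fold ran from 2.75 to 36.1 with a median of 5.57, beside 5.47 for its whole list. Over the 28 with POLR1A that fold ran from 3.61 to 24.95 with a median of 6.98, beside 5.44.

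Where a member overlapped another list, the distance between summits was measured. The H3K9me3 and POLR1A summits were within 50 bp at 15 of 28 members, with a median distance of 33 bp. For POLR2A it was 12 of 39 with a median of 134 bp, and for H3K4me3 6 of 16 with 73 bp. Over all overlapping H3K9me3 peaks the medians were 68, 114 and 164.5 bp, and 246 of 564, 199 of 691 and 97 of 406 were within 50 bp. A start or end shared to within 5 bp was found at 3 of the 28 members (10.7%), 3 of the 39 (7.69%) and 1 of the 16 (6.25%). Over all overlapping H3K9me3 peaks it was 14.9%, 11.3% and 7.14%. CUT&Tag of all 4 targets relies on the same transposase, and control antibody peaks were not analysed here, so overlap from the assay and overlap of the proteins cannot be told apart in these lists.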

How the data were processed

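CUT&Tag peak lists of HCT116 cells, 1 per target, were analysed. Samples were grouped by the antibody in their labels (H3K9me3, POLR1A and POLR2A with 3 samples each, H3K4me3 with 1). The deposited lists are in narrowPeak format. By that format and the values, each deposited peak has a fold enrichment as a linear ratio, a −log10 q value and a summit offset, all computed by the authors, and the other columns were not used. As tools, with no role attached, the submitters' processing notes list DESeq2 1.44.0, HTSeq 2.0.2, RSEM 1.3.3, deepTools 3.1.1, FastQC 0.12.0, SAMtools 1.6 and STAR, and as builds hg38 and GRCh38. MACS2 is named only by the files themselves. Its settings, its control, any pooling of replicates and the handling of repeat reads are not stated in those sources. Read depth is unknown from peak lists. Reads that are shared between repeat copies can raise or remove peaks around centromeres.

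The lists held 16414 H3K9me3, 3812 POLR1A, 19997 POLR2A and 17181 H3K4me3 peaks on chromosomes 1 to 22 and X. Their lowest −log10 q lay just above 1. Genes came from a RefSeq table of GRCh38 with 59792 genes, of which 755 on scaffolds or unplaced were left out and 58415 lay on these chromosomes; the table was read without strand. Python 3.11.15, pandas 2.3.3, numpy 2.4.6 and scipy 1.17.1 were used. Interval and overlap functions were tested on simulated positions. Folds were compared only within a list. No model or test was run, since there were no values per replicate.

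Members were named by rule: the 10 highest folds, the 5 widest, the 5 farthest from another H3K9me3 peak, the 5 farthest from a gene, and up to 10 per other list by that list's fold, with their neighbouring genes. The members, lists and rules were chosen with earlier results of these data known. The nearest protein-coding gene, its marks and the genes nearest to most members were added after values had been seen. Alternatives were other isolation and gene distances, protein-coding genes only, stricter q values, other overlap rules and leaving out margins. No genome sequence was used, so no sequence is shown. A few named items are not reported here.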

Additional observations from a re-analysis of the deposited data

How the results depend on the processing

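Of 81 recomputed values, 52 stayed within the interval of the reported value (counts within 1.5 times) and 29 moved. With an isolation distance of 25 kb there were 3448 members and with 100 kb 1173, and at both distances every share and median stayed within its interval. With genes 50 kb away there were 877 members, of which 2.05% overlapped POLR1A, 1.03% POLR2A and 0.228% H3K4me3, 18.6% had a −log10 q of 5 or more, and 12.3% lay in gene-free intervals of at least 1 Mb. With protein-coding genes only there were 3693 members, with 1.98%, 2.65% and 1.27% for the 3 targets, and 43.7% in coding-gene-free intervals of that length, which are longer by construction. With H3K9me3 peaks of a −log10 q of at least 2, 25.3% of members were at 5 or more, with a median fold of 4.94 and width of 519 bp. At 5 or more, isolation counted only such peaks: 957 members, POLR1A on 3.55%, POLR2A on 3.66%, all 100% at that q by construction, a median fold of 6.43, a width of 693 bp and 6.58% in long gene-free intervals. Over all H3K9me3 peaks with a −log10 q of 5 to 10, POLR1A was on 2.76% and POLR2A on 4.78%. Over all those at 10 or more it was 25.7% and 17.0%. Keeping the members and dropping those under 2 gave 25.2%, 4.95 and 518 bp. Without margins POLR1A was on 0.676% of members and 0.338% were in long gene-free intervals. With the other list held to a −log10 q of 5 or more, POLR2A was on 0.896%. No paired analysis was possible because the lists carry no values per replicate, and for the same reason no replicate could be left out. Read depth is unknown, so what it limits could not be stated.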
